A study of Homo sapiens with 12 samples.

Results

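The D-type cyclins and their kinase partners are encoded by 5 genes, CCND1, CCND2, CCND3, CDK4 and CDK6, and all 5 were found by symbol among the 60612 named genes of a count table from CAMA-1 cells. CAMA-1 is an established luminal, oestrogen receptor-positive breast cancer cell line, used here with its wild-type genotype. RNA was counted from 12 libraries of 3′ mRNA tags, 3 in each of 4 groups grown in RPMI-1640 with serum: the DMSO vehicle, the CDK4/6 inhibitor abemaciclib at 100 nM, the oestrogen receptor degrader fulvestrant at 5 nM, and both drugs together. Per the study's methods, exposure lasted 5 days and the libraries of a group were independent biological replicates from an experiment performed once. For the combination the labels give no dose of its own.

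D-type cyclins are the regulatory subunits that switch on CDK4 and CDK6. The active kinases phosphorylate the retinoblastoma protein and its relatives, which releases E2F transcription factors and lets a cell leave G1 phase. Cyclin D1, made from CCND1, is a classical oestrogen-responsive cyclin of luminal breast cancer, cyclin D2 and cyclin D3 share its kinase-activating role, and CDK6 is best known for its part in blood cells.

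CCND1 lies on chromosome 11 at 69641156 to 69654474 on the plus strand of GRCh38, and CCND3 on chromosome 6 at 41934934 to 42050357 on the minus strand. CDK4 lies on chromosome 12 at 57747727 to 57756013 on the minus strand, CCND2 on chromosome 12 at 4269771 to 4305353 on the plus strand, and CDK6 on chromosome 7 at 92604921 to 92836573 on the minus strand. A 3′ library reads the end of the transcript, so the last exon matters most. The last exon of CDK4 shares all of its 891 bases with exons of TSPAN31, a tetraspanin gene on the opposite strand, and the last exon of CCND1 shares 497 bases with LTO1, also on the opposite strand. The strand setting of the counting is not given in the sources used here, so reads of these overlapping genes may not be separable.

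RefSeq promoter sequences were matched for 3 of the 5 members. The 250 bases before the start of CDK4 and of CCND3 are shown because the E-box, the letters CACGTG bound by MYC and related factors, sets the 2 windows apart. Capitals mark every CACGTG in CDK4 and every GC box, GGGCGG on either strand, in CCND3. Both windows are on the minus strand, at chr12:57752311-57752560 for CDK4 and chr6:41941809-41942058 for CCND3, in GRCh38.p14.
CDK4: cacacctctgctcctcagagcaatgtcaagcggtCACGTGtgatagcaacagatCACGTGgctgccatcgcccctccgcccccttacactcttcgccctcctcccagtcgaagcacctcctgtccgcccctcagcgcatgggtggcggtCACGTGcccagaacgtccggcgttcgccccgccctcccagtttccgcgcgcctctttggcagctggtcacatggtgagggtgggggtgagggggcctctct
CCND3: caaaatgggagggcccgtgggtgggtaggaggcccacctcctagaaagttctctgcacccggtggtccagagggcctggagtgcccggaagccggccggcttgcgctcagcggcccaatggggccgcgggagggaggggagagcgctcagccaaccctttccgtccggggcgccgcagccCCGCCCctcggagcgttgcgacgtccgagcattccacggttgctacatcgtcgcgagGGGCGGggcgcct
The CDK4 window held 3 E-boxes, beginning 216, 196 and 101 bases before the start. Of 35116 promoter windows of the same length, 6.34% held at least 1 CACGTG and 0.0797% held 3 or more. The half-site of the oestrogen response element, GGTCA on either strand, occurred 3 times in the CDK4 window, 2 of them overlapping an E-box. It was present in 32.6% of all windows, and 3 or more times in 1.34%. The CCND3 window held 2 GC boxes, against 42.6% of windows with at least 1, and neither CACGTG nor GGTCA. GC boxes do not set it apart: the CDK4 window held 3, left in small letters above. The CDK6 window, not shown, also held 3, and 13.9% of all windows held 3 or more. The E2F site, as TTTGGCGC or TTTCCCGC, and the cyclic AMP response element, TGACGTCA, were searched too. None of them occurred in the windows of CDK4, CCND3 and CDK6, against 0.55%, 1.39% and 1.65% of all windows.

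The libraries held 3299119 to 5164667 reads, and all 12 were closest, by correlation, to libraries given the same treatment. All 8 luminal epithelial markers were above 10 CPM (normalised counts, scaled to the size of the library) in every group, and the 5 leukocyte markers summed to at most 0.388 CPM in any library. Of 6 fibroblast markers, COL1A2, DCN, LUM and PDGFRB had no read, while COL1A1 and COL3A1 were measured. COL1A1 rose with abemaciclib and fulvestrant, and COL3A1 with fulvestrant and the combination. The summed level of that list was 17.8 to 21.7 CPM in DMSO, 25.01 to 32.1 CPM with abemaciclib, 28.5 to 36.95 CPM with fulvestrant and 23.7 to 27.9 CPM with both. Among the 6 basal or myoepithelial markers, KRT5, KRT14 and TP63 had no read in DMSO, and the summed level of the list was 9.50 to 16.3 CPM in DMSO, 67.2 to 101 CPM with abemaciclib, 76.3 to 79.8 CPM with fulvestrant and 85.2 to 94.0 CPM with both, through ACTA2 and MYLK. Mitochondrial transcripts took 12.0% to 12.5% of reads in DMSO and 15.6% to 20.6% in the treated groups. The part of the myoepithelial and fibroblast genes in the results below was not tested. Without mitochondrial transcripts, an alternative chosen after seeing the data, the change of CCND1 under abemaciclib was 1.11 on the log2 scale, against 1.10 with them. In bulk RNA, fewer cells in a state and less RNA per cell cannot be told apart.

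CCND1 rose with abemaciclib and fell with fulvestrant, given alone or in combination. Its normalised count was 624, 616 and 613 CPM in the DMSO libraries and 1360, 1289 and 1332 CPM with abemaciclib. It was 195, 186 and 205 CPM with fulvestrant and 244, 237 and 215 CPM with both drugs. Each drug group lay wholly apart from DMSO, the abemaciclib libraries above it and the others below. The mean was 617 ± 5.64 CPM in DMSO, 1327 ± 35.6 CPM with abemaciclib, 195 ± 9.88 CPM with fulvestrant and 232 ± 14.9 CPM with both (SD, n = 3).

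**Figure D1:**
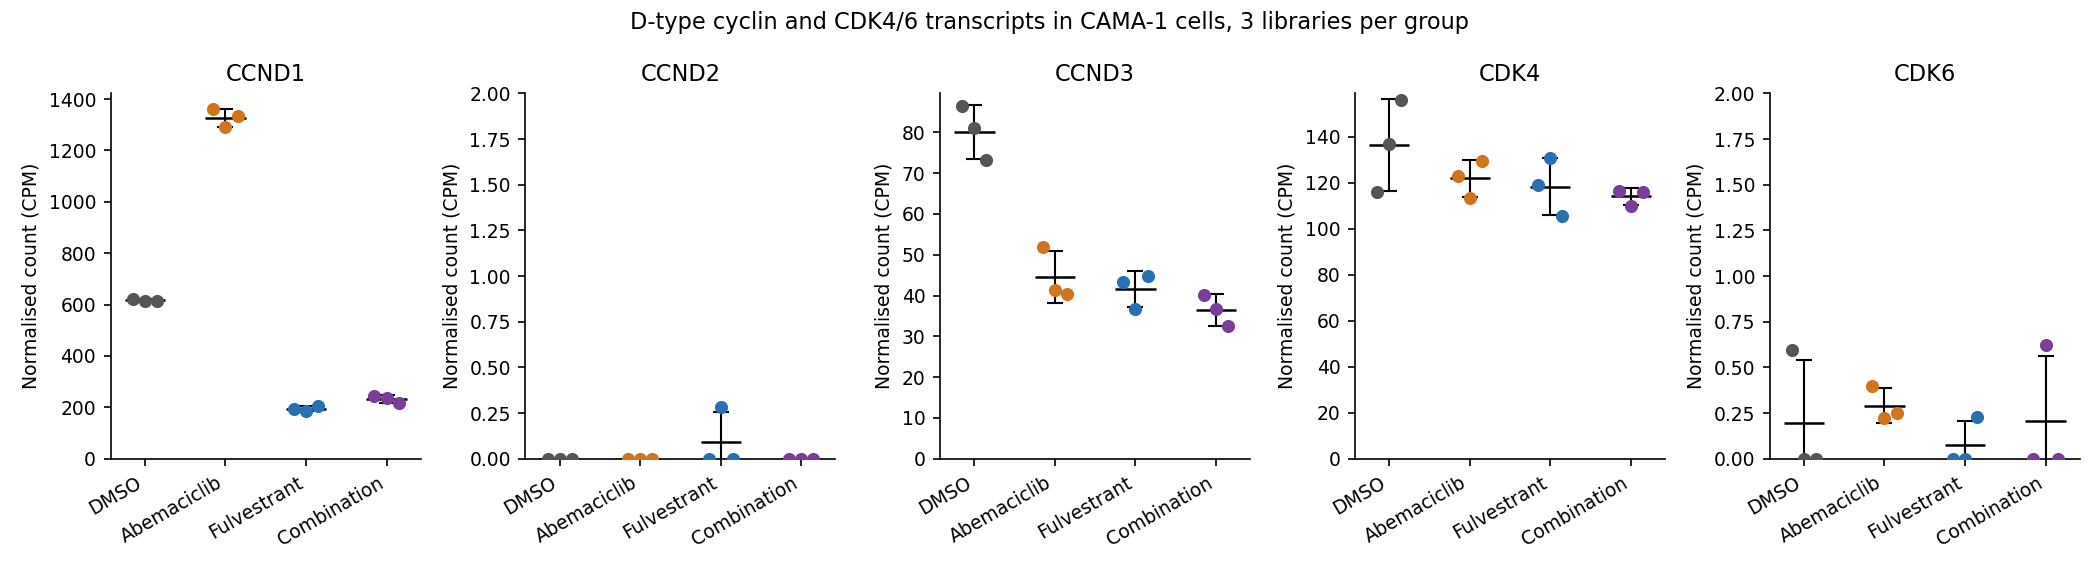
Normalised count (CPM) of the 5 members in each library, by group, each panel with its own scale from 0. Points are libraries, horizontal lines the mean and bars the SD of 3 libraries. The 3 abemaciclib libraries of CCND1 sit between 1289 and 1360 CPM, above all others, while CDK4 overlaps between groups and CCND2 and CDK6 stay under 1 CPM.

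Abemaciclib raised CCND1 by 1.10 ± 0.07 (SE) on the log2 scale, or 2.15-fold (quasi-likelihood test of edgeR, adjusted p = 1.2e-12 by Benjamini-Hochberg). Fulvestrant lowered it by a log2 change of -1.66 ± 0.07 (adjusted p = 2.04e-16 in edgeR), and the combination by -1.41 ± 0.07 (adjusted p = 2.5e-15 in edgeR). Between the drugs, CCND1 was 6.79-fold lower in fulvestrant than in abemaciclib (edgeR adjusted p = 1.67e-20), the change of rank 80 by size among 11803 genes. Adding fulvestrant to abemaciclib left it 5.72-fold lower than abemaciclib alone (edgeR adjusted p = 8.41e-20). Adding abemaciclib to fulvestrant gave a log2 difference of 0.25 (95% interval 0.09 to 0.40; edgeR adjusted p = 0.097), which did not pass the threshold of 0.05. Without fulvestrant replicate 3 that difference was 0.28 and passed (edgeR adjusted p = 0.0189). By level, CCND1 ranked 181 of 11803 tested genes in DMSO, 60 with abemaciclib, 837 with fulvestrant and 661 with both drugs.

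CCND3, the gene of cyclin D3, fell in every drug group. It stood at 86.4, 81.0 and 73.2 CPM in DMSO and at 51.8, 41.3 and 40.4 CPM with abemaciclib. With fulvestrant it was 43.2, 36.7 and 44.9 CPM, and with both drugs 40.2, 36.6 and 32.4 CPM. All 9 treated libraries were below all 3 DMSO libraries. The fulvestrant libraries overlapped both other drug groups, while the lowest abemaciclib library (40.4 CPM) stood just above the highest combination library (40.2 CPM). The log2 change against DMSO was -0.84 ± 0.12 with abemaciclib, -0.94 ± 0.12 with fulvestrant and -1.14 ± 0.12 with both (SE; edgeR adjusted p = 1.69e-06, 2.07e-07 and 5.36e-09). Thus under abemaciclib alone the 2 expressed D-type cyclins moved in opposite directions, and under fulvestrant in the same one.

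No difference of CCND3 between drug groups passed the threshold in the fit of all libraries. The combination differed from abemaciclib by -0.30 (95% interval -0.56 to -0.04; edgeR adjusted p = 0.0645) and from fulvestrant by -0.20 (95% interval -0.46 to 0.06; edgeR adjusted p = 0.586) on the log2 scale. Fulvestrant and abemaciclib differed by -0.10 (95% interval -0.35 to 0.16; edgeR adjusted p = 0.607). The comparison with abemaciclib passed in a fit of only the groups compared (-0.31, edgeR adjusted p = 0.0353), without fulvestrant replicate 3 (adjusted p = 0.04 in edgeR) and without combination replicate 1 (adjusted p = 0.0456 in edgeR).

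CCND2 was close to absent. A single read was found in 12 libraries, in fulvestrant replicate 2, which corresponds to 0.0188 CPM over all libraries (95% exact Poisson interval 0.000477 to 0.105 CPM, counting error only). The other groups had 0 reads. A limit of 3 reads over a group allows up to 0.223 CPM in DMSO, 0.222 CPM in abemaciclib and 0.212 CPM in the combination. The 95% exact Poisson intervals of these groups reached up to 0.274, 0.274 and 0.261 CPM.

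CDK4, the catalytic partner, varied less between groups than the cyclins. Its libraries gave 116, 137 and 156 CPM in DMSO, 123, 113 and 129 CPM with abemaciclib, 119, 131 and 106 CPM with fulvestrant, and 116, 110 and 116 CPM with both drugs. Every treated group overlapped DMSO, whose own libraries spread most. The log2 change was -0.17 with abemaciclib (95% interval -0.37 to 0.03; edgeR adjusted p = 0.179) and -0.21 with fulvestrant (95% interval -0.41 to -0.01; edgeR adjusted p = 0.0764), neither past the threshold. The combination passed at -0.26 ± 0.10 (SE; edgeR adjusted p = 0.0259).

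That CDK4 call lay close to the threshold. Without DMSO replicate 3 the log2 change was -0.15 and the call was lost (edgeR adjusted p = 0.247). It was also lost without DMSO replicate 2 (-0.26; edgeR adjusted p = 0.0629) and without combination replicate 1, 2 or 3 (-0.27, -0.23 and -0.27; edgeR adjusted p = 0.0509, 0.1 and 0.0525), where the size of the change was close to that with all libraries. Conversely, without DMSO replicate 1 CDK4 was lower under abemaciclib (-0.26; edgeR adjusted p = 0.0359) and under fulvestrant (-0.30; edgeR adjusted p = 0.0125), and without fulvestrant replicate 2 it was lower under fulvestrant (-0.29; edgeR adjusted p = 0.0257). TSPAN31, which overlaps the end of CDK4, had 20.1 ± 1.44 CPM in DMSO and 33.1 ± 3.78 CPM with fulvestrant (SD, n = 3), and it rose there by 0.72 on the log2 scale (edgeR adjusted p = 0.000477). The part of these overlapping reads in the CDK4 values was not tested.

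CDK6, the other kinase that D-type cyclins activate, was barely detected. It had 10 reads in 6 of the 12 libraries, or 0.188 CPM (95% exact Poisson interval 0.0903 to 0.346 CPM, counting error only). By group this was 2 reads in DMSO, 4 with abemaciclib, 1 with fulvestrant and 3 with both. No difference was detectable at this depth.

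CCND1, CCND3 and CDK4, 3 of the 5 members, had enough reads to be tested. With abemaciclib 2 passed, CCND1 higher and CCND3 lower, where 41.2% of all genes tested passed, 20.5% higher and 20.7% lower. With fulvestrant CCND1 and CCND3 were lower, where 51.0% of all genes passed, 25.3% higher and 25.7% lower. With the combination all 3 tested members were lower, where 55.2% of all genes passed, 27.7% higher and 27.5% lower. CCND1 alone passed, lower, between the combination and abemaciclib (33.5% of genes passed, 17.7% lower) and between fulvestrant and abemaciclib (29.0% passed, 15.5% lower). None of the 3 passed between the combination and fulvestrant (1.92% in either direction) by edgeR or by DESeq2, and 1 had an unadjusted edgeR p under 0.05. At these background shares the counts alone say little about the members, and the sizes of their changes carry the description.

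**Figure D2:**
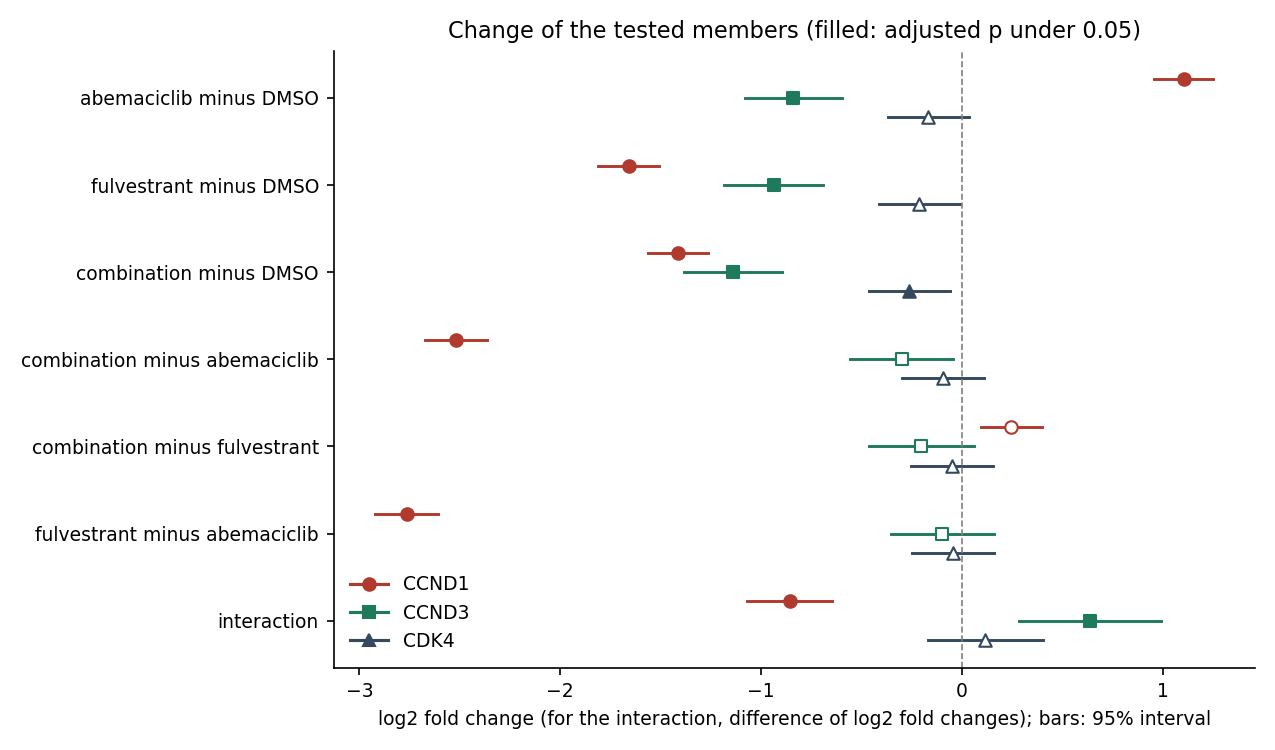
log2 fold change of CCND1, CCND3 and CDK4 in 6 comparisons and the interaction, with 95% intervals from edgeR. Filled symbols have an adjusted p under 0.05. CCND1 stands at 1.10 with abemaciclib and at -1.66 with fulvestrant, CCND3 lies below 0 in all 3 comparisons with DMSO, and CDK4 stays within 0.3 of 0.

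The drugs did not add up on the log2 scale for either cyclin. The sum of the single-drug changes of CCND1 was -0.56, while the combination gave -1.41. Put differently, abemaciclib changed CCND1 by 1.10 without fulvestrant and by 0.25 with it, an interaction of -0.86 ± 0.10 (SE; edgeR adjusted p = 6.56e-07). For CCND3 the sum was -1.78 and the combination gave -1.14, an interaction of 0.64 ± 0.17 in the other direction (SE; edgeR adjusted p = 0.00881). For CDK4 the interaction was 0.12 (95% interval -0.17 to 0.40; edgeR adjusted p = 0.598). Thus 2 of the 3 tested members had an interaction, 1 positive and 1 negative, where 21.1% of all genes did, 9.49% positive and 11.6% negative.

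The make-up of the D-type cyclin pool shifted with treatment. These are ratios of 3′ tag counts, which do not grow with transcript length but may be captured unequally between genes, so changes between groups are safer than the ratios themselves. CCND3 supplied 11.5% ± 0.757 of D-type cyclin reads in DMSO, 3.24% ± 0.382 with abemaciclib, 17.5% ± 0.913 with fulvestrant and 13.5% ± 0.546 with both (SD, n = 3). The groups did not overlap in this share. All D-type cyclin reads together came to 697.5 ± 12.1 CPM in DMSO, 1372 ± 40.6 CPM with abemaciclib, 237 ± 13.9 CPM with fulvestrant and 268 ± 18.7 CPM with both.

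Cyclin reads per kinase read followed CCND1. There were 5.37, 4.51 and 3.93 CCND1 reads per CDK4 read in the DMSO libraries and 11.1, 11.4 and 10.3 with abemaciclib. The ratio was 1.64, 1.42 and 1.95 with fulvestrant and 2.09, 2.16 and 1.85 with both drugs. Abemaciclib libraries lay above DMSO and both fulvestrant-containing groups below it, and the latter overlapped. With 3 libraries against 3, an exact permutation test cannot give a two-sided p below 0.1, so the ratios are given as a description.

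**Figure D3:**
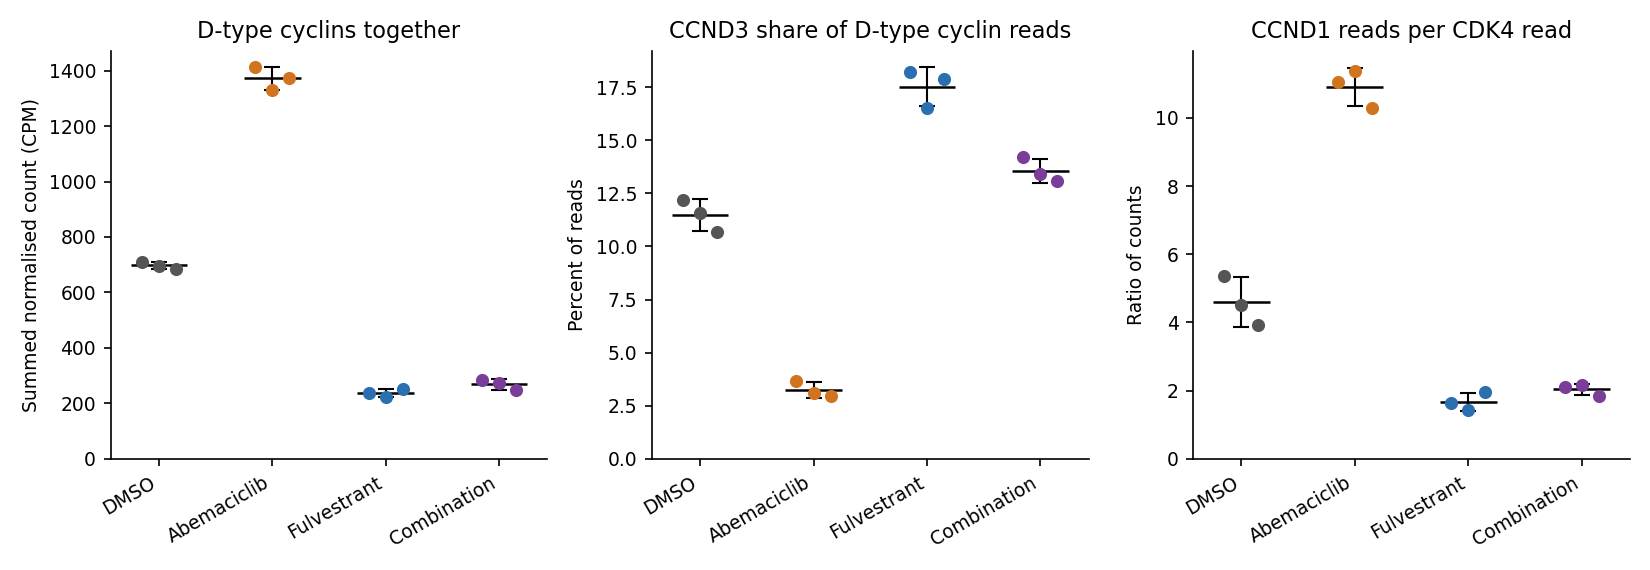
Summed normalised count of the D-type cyclins (CPM), CCND3's share of their reads (percent) and CCND1 reads per CDK4 read, by group, each from 0. Points are libraries, lines the mean and bars the SD of 3. CCND3's share falls to 3.24% with abemaciclib and reaches 17.5% with fulvestrant.

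Around the 5 members, 57 genes of the pathway were listed by role and 52 of them were tested. Against DMSO, 12 were higher and 15 lower with abemaciclib, 17 and 17 with fulvestrant, and 15 and 18 with both. That is 51.9%, 65.4% and 63.5% of the 52, beside the 41.2%, 51.0% and 55.2% of all genes called in those comparisons. The median log2 change of the 52 was 0.09, 0.08 and 0.01, beside medians of 0.00, 0.01 and 0.01 over all genes.

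The INK4 proteins, which bind CDK4 and CDK6 and block cyclin D, did not move together. Of 4 tested, 1 rose and 3 fell with abemaciclib, and 1 rose and 2 fell with fulvestrant and with both drugs. That is 100%, 75.0% and 75.0% of the 4, beside 41.2%, 51.0% and 55.2% of all genes called. CDKN2B, encoding p15, rose from 7.19 ± 0.578 CPM in DMSO to 26.8 ± 3.12 CPM with abemaciclib, 31.6 ± 1.99 CPM with fulvestrant and 37.6 ± 6.14 CPM with both (SD, n = 3). CDKN2C, encoding p18, fell from 20.2 ± 2.85 CPM to 1.82 ± 0.491, 2.33 ± 0.762 and 0.905 ± 0.232 CPM in the same order. CDKN2A fell too, with log2 changes of -0.45, -0.41 and -0.39. CDKN2D fell with abemaciclib (-0.99; edgeR adjusted p = 0.000218), and its values of -0.24 with fulvestrant and -0.38 with both did not pass.

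Among the CIP/KIP proteins, which inhibit CDK2 and also help assemble cyclin D with its kinase, CDKN1A and CDKN1B moved in opposite directions. CDKN1A, encoding p21, rose from 15.3 ± 1.39 CPM in DMSO to 46.4 ± 1.70 CPM with abemaciclib and to 132 ± 10.1 CPM with fulvestrant (SD, n = 3). CDKN1B, encoding p27, fell, with log2 changes of -0.50, -0.29 and -0.36 with abemaciclib, fulvestrant and both. CDKN1C fell with abemaciclib (-1.34) and with both drugs (-1.45).

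Genes that activate and fold CDK4 moved in both directions. CDK7, the kinase that phosphorylates CDK4, rose by 0.69, 0.40 and 0.40 on the log2 scale, while its assembly factor MNAT1 fell (-0.84, -0.65 and -1.05). HSP90AA1, a chaperone of CDK4, fell (-0.62, -1.07 and -1.18). HSP90AB1 and the co-chaperone CDC37 fell with fulvestrant (-0.58 and -0.21) and with both drugs (-0.47 and -0.23). Of 10 tested genes of cyclin D turnover, none fell in any comparison with DMSO, and 3 rose with abemaciclib and 4 with fulvestrant and with both, where 20.5%, 25.3% and 27.7% of all genes rose. GSK3B, the kinase that marks cyclin D1 for export and degradation, rose by 0.31, 0.46 and 0.65, and FBXO4, a ubiquitin ligase subunit for cyclin D1, rose by 0.75 with fulvestrant and 0.88 with both. The list also holds genes whose products remove ubiquitin. USP2, 1 of these, was among those that rose with abemaciclib, from 1.49 ± 0.162 CPM in DMSO to 3.76 ± 0.813 CPM (SD, n = 3).

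Of the pocket proteins that cyclin D kinases phosphorylate, RB1 passed in none of the 7 comparisons, with 60.3 ± 12.2 CPM in DMSO, 57.6 ± 5.67 CPM with abemaciclib, 65.8 ± 17.9 CPM with fulvestrant and 47.9 ± 7.54 CPM with both (SD, n = 3). RBL1, encoding p107 and itself an E2F target, fell, with log2 changes of -1.93, -2.08 and -2.63. RBL2 passed in no comparison with DMSO, where it stood at 49.5 CPM, against 56.4 CPM with abemaciclib, 46.9 CPM with fulvestrant and 49.9 CPM with both. Downstream, E2F1 fell (-1.42, -2.85 and -4.27) and so did E2F2 (-2.33, -3.26 and -4.34). E2F3 did not pass with abemaciclib, at 144 ± 8.52 CPM in DMSO and 147 ± 4.58 CPM there. It fell to 94.4 ± 9.26 CPM with fulvestrant and 90.5 ± 4.05 CPM with both (SD, n = 3).

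The cyclins that act after cyclin D fell with every treatment. All 4 tested genes of the cyclin E, cyclin A and CDK2 list were lower in each comparison with DMSO. Of all genes, 20.7% were lower with abemaciclib, 25.7% with fulvestrant and 27.5% with both. The log2 changes with abemaciclib, fulvestrant and both were -0.62, -1.37 and -1.37 for CCNE1, -2.78, -2.16 and -3.63 for CCNE2, and -1.25, -1.46 and -1.73 for CDK2. CCNA2, the S and G2 phase cyclin, went from 94.1 ± 3.17 CPM in DMSO to 8.38 ± 0.376 CPM with abemaciclib and 6.97 ± 1.53 CPM with fulvestrant (SD, n = 3), and had 2 reads in the combination. Between the combination and fulvestrant, where no member passed, CCNE2 (-1.47; edgeR adjusted p = 0.00112) and E2F1 (-1.43; edgeR adjusted p = 1.49e-05) were lower. CCNA2, CDK1 and FOXA1 were also called and lower there, with 2 reads of CCNA2 and 9 of CDK1 in the combination.

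**Figure D4:**
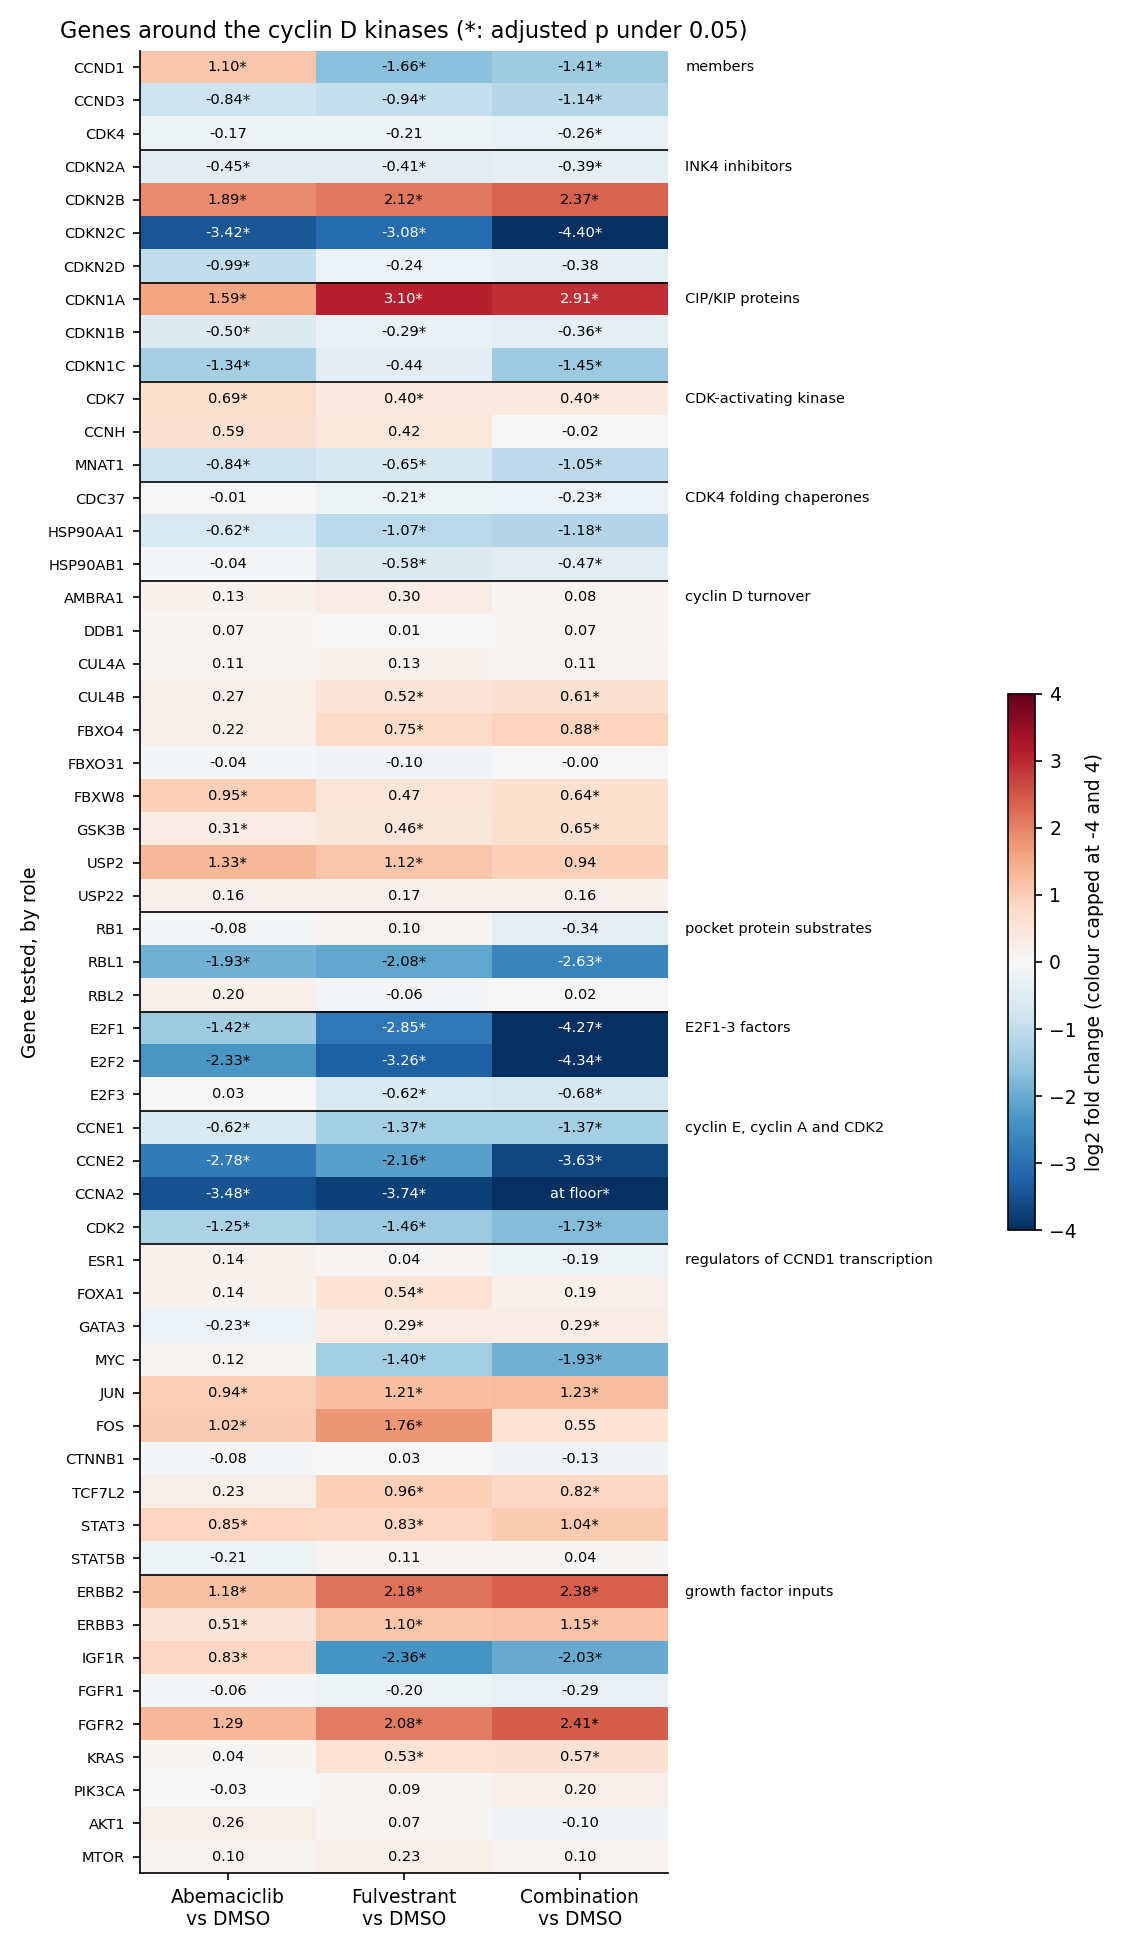
log2 fold change against DMSO of the tested members and pathway genes, by role, for abemaciclib, fulvestrant and both. Colour runs from -4 (blue) to 4 (red), asterisks mark an edgeR adjusted p under 0.05, and "at floor" marks a treated group with at most 3 reads. E2F1 and CCNE2 are negative in all 3 columns, while CCND1 changes sign between the first and the other columns.

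Of 10 tested regulators of CCND1 transcription, 3 rose and 1 fell with abemaciclib, 6 rose and 1 fell with fulvestrant, and 4 rose and 1 fell with both. That is 4, 7 and 5 of 10, beside 41.2%, 51.0% and 55.2% of all genes. The oestrogen receptor gene ESR1 passed in no comparison with DMSO and stood at 93.3 ± 5.42 CPM in DMSO, 102.7 ± 3.43 with abemaciclib, 95.3 ± 10.3 with fulvestrant and 81.5 ± 4.52 with both (SD, n = 3). MYC fell with fulvestrant (-1.40) and with both (-1.93), while its 3 DMSO libraries varied widely, at 17.6 ± 9.47 CPM. JUN and STAT3 rose with all treatments, JUN by 0.94, 1.21 and 1.23 and STAT3 by 0.85, 0.83 and 1.04. Upstream, the receptor genes ERBB2 and ERBB3 rose as well, ERBB2 by 1.18, 2.18 and 2.38. IGF1R, the receptor for insulin-like growth factor, rose with abemaciclib (0.83) and fell with fulvestrant (-2.36) and both (-2.03), at 12.6 CPM or less.

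On chromosome 11, 6 of 10 listed neighbours of CCND1 were tested. MYEOV, whose start lies at -347.0 kb from that of CCND1, moved with the same signs: from 10.2 ± 1.95 CPM in DMSO it rose to 22.5 ± 2.49 CPM with abemaciclib and fell to 2.16 ± 0.162 CPM with fulvestrant and 2.27 ± 0.945 CPM with both (SD, n = 3). Its log2 changes were 1.13, -2.24 and -2.14 (edgeR adjusted p = 4.28e-05, 3.29e-07 and 2.38e-07). PPFIA1 fell (-0.39, -0.51 and -0.34), and CTTN rose with fulvestrant and with both, by 0.47 each. LTO1, which overlaps the end of CCND1, had 35.7 ± 12.3 CPM in DMSO and 29.3 ± 2.03 CPM with abemaciclib and passed in no comparison.

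**Figure D5:**
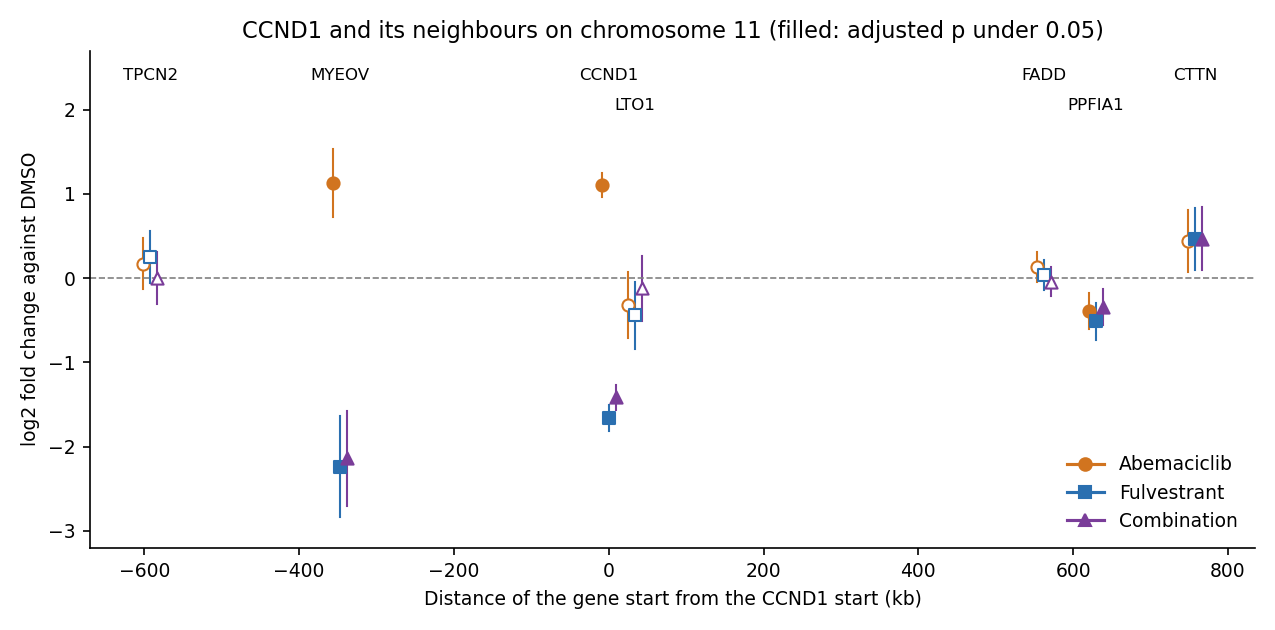
log2 fold change against DMSO of CCND1 and its 6 tested neighbours, by distance of the gene start from that of CCND1 (kb), with 95% intervals. The symbols of a gene are set slightly side by side, and filled ones have an edgeR adjusted p under 0.05. MYEOV and CCND1 are above 0 with abemaciclib and below it with fulvestrant and both, and the other neighbours stay within 0.6 of 0.

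The genes whose levels ran most like each member over the 12 libraries were ranked by Pearson's r of log2 CPM among 8471 genes of at least 10 CPM. For CCND1 these were TFF1 (r = 0.99), MUCL1, PTGES, MAST4 and KCNK5 (0.985 for the last). For CCND3 they were YBX1 (0.982), HDAC2, DONSON, PSIP1 and G2E3 (0.9745 for the last). For CDK4 the likeness was weaker, from COPS3 (0.916) through PIGW, EMC8 and LSM8 to ADNP2 (0.877). The points share the 4 groups, and no p is attached. Between members r was 0.399 for CCND1 and CCND3, 0.311 for CCND1 and CDK4, and 0.476 for CCND3 and CDK4.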

How the data were processed

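CAMA-1 RNA was sequenced as QuantSeq FWD 3′ libraries. Per the labels, the authors aligned reads to hg38 with STAR and counted them with featureCounts 2.0.1, and they deposited raw counts per gene, which hold no normalisation. The table has 60656 rows, of which 44 lack a gene name and hold 0 reads. Library totals of 3299119 to 5164667 set the counting precision, and Poisson intervals and limits for 0 (3 reads over a group) cover counting error only.

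Counts were tested in edgeR 4.0.16 under R 4.3.3 (TMM factors, filterByExpr with a minimum count of 10 and total of 15, robust quasi-likelihood fit of all 12 libraries), with Benjamini-Hochberg adjustment over 11803 genes and a threshold of 0.05. The interaction is the abemaciclib change with fulvestrant minus that without. CPM divide by the tested genes' totals times the TMM factors. They were first computed on the totals of all genes, and the denominator was changed after those values had been seen, to match the library sizes of the fit. The members and gene lists were chosen with earlier results of these data known. Genes other than members were named by a rule: up to 3 called genes per list and comparison with the largest change and at least 10 CPM, genes that account for a count of 5 or fewer, and RB1, CDKN1A, CDKN1B, CDKN2C, CCNE1, CCNE2, CDK2 and TSPAN31. ESR1 and LTO1 were named outside it, after their values were seen. AMBRA1, DDB1, CUL4A, RBL2, CDKN1C, IGF1R and MYEOV also fall outside it and were named with their values known. CDKN1C, IGF1R and MYEOV had a mean under 10 CPM over all libraries. Alternatives were DESeq2 1.42.0, other scaling factors and filters, only the groups compared, a replicate block and leaving out each library. Positions are from GENCODE 44 and promoters from RefSeq. The fit was tested on simulated data.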

Additional observations from a re-analysis of the deposited data

Results flagged for a closer look

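Both expressed D-type cyclins responded differently to abemaciclib depending on fulvestrant, by a test of the difference itself. For CCND1 the log2 change with abemaciclib was 1.10 without fulvestrant and 0.25 with it, a difference of -0.86 (edgeR adjusted p = 6.56e-07). For CCND3 it was -0.84 without and -0.20 with fulvestrant, a difference of 0.64 in the opposite direction (edgeR adjusted p = 0.00881).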

How the results depend on the processing

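The call and direction of CCND1 and CCND3 against DMSO and in the interaction held under every alternative run. Over all alternatives CCND1 under abemaciclib ranged from 1.09 to 1.13 and CCND3 from -0.97 to -0.78. The number of members past the threshold between the combination and abemaciclib was 1 and became 2, CCND3 joining, with only the groups compared, and ranged from 1 to 2 when single libraries were left out. Between the combination and fulvestrant it was 0 and ranged from 0 to 1. Changes near 0 turned sign without single libraries: CDK4 between the combination and fulvestrant (range -0.13 to 0.0251, the highest without fulvestrant replicate 2), CCND3 between fulvestrant and abemaciclib (-0.16 to 0.0285, the highest without abemaciclib replicate 1), CDK4 between fulvestrant and abemaciclib (-0.12 to 0.0319, the highest without fulvestrant replicate 3), and the CDK4 interaction (-0.0031 to 0.21, the lowest without DMSO replicate 3). The causes were not tested, beyond fewer libraries in the fit. Over all genes, calls between the combination and fulvestrant numbered 227, against 91 with at least 10 counts in every library, 125 with only the groups compared, and 146 to 588 when single libraries were left out, the highest without fulvestrant replicate 3.

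Replicate numbers showed no clear pairing of the libraries. The deviations of 18 same-numbered pairs correlated at -0.215 to 0.119, and those of differently numbered pairs at -0.208 to 0.301. The highest value was between DMSO replicate 1 and fulvestrant replicate 3. Of 12 libraries, 5 correlated best with their own number. Such correlations cannot show whether the experiment was run in pairs. With the replicate number as a block the same members were called in all 7 comparisons, and calls over all genes moved from 4864 to 4799 with abemaciclib and from 227 to 203 between the combination and fulvestrant. CPM on the totals of all genes, an alternative recorded after seeing the data, were 0.261% to 0.342% lower per library, for example 615 CPM for CCND1 in DMSO in place of 617. Without TMM factors that mean was 632 CPM. Depth limits CCND2 and CDK6, which were tested only without the filter on low counts and passed in no comparison there (lowest edgeR adjusted p = 0.567). DESeq2 gave them no adjusted p.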

Other observations

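Other cyclins and cyclin-dependent kinases were measured in the same libraries. Of 14 other cyclins and cyclin partners 13 were tested, and against DMSO 5 rose and 2 fell with abemaciclib, 4 rose and 3 fell with fulvestrant, and 5 rose and 4 fell with both. CCNG2, a cyclin linked to cell cycle exit, rose from 25.3 ± 2.83 CPM in DMSO to 53.2 ± 4.56 CPM with abemaciclib, 97.0 ± 15.1 CPM with fulvestrant and 88.2 ± 7.07 CPM with both (SD, n = 3). CCNDBP1, whose product binds cyclin D1, rose by 0.83, 1.11 and 1.25 on the log2 scale, and CCNF fell (-1.67, -1.57 and -1.52). Of 13 other CDKs tested, 5 fell and none rose with abemaciclib, 3 fell and 2 rose with fulvestrant, and 3 fell and 1 rose with both. Of all genes tested, 41.2%, 51.0% and 55.2% were called in these comparisons, beside 53.8%, 53.8% and 69.2% of the 13 cyclins and 38.5%, 38.5% and 30.8% of the 13 CDKs. CDK1, the mitotic kinase, went from 98.0 ± 7.69 CPM in DMSO to 20.5 ± 1.68 CPM with abemaciclib, 10.2 ± 3.03 CPM with fulvestrant and 0.618 ± 0.494 CPM with both.

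A list of oestrogen-responsive genes was used to check the labels. All 5 listed genes rose with abemaciclib, and 4 fell with fulvestrant and 3 with both. Of all genes, 20.5% rose with abemaciclib, and 25.7% and 27.5% fell with fulvestrant and with both. XBP1 was not among those that fell, at 792 ± 22.1 CPM in DMSO, 761 ± 44.7 CPM with fulvestrant and 722.5 ± 14.2 CPM with both. PDZK1 was near the floor, with 10 reads in DMSO, 0 with fulvestrant and 4 with both. GREB1, an oestrogen receptor cofactor, stood at 81.1 ± 4.43 CPM in DMSO, 127 ± 4.57 CPM with abemaciclib, 4.62 ± 0.775 CPM with fulvestrant and 7.68 ± 1.05 CPM with both (SD, n = 3).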
